A study of Drosophila melanogaster with 12 samples.

Results

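The genes described here encode proteins of synaptic vesicles and of the presynaptic terminal, the part of a neuron that releases transmitter. They were taken from a list of 32 named fly genes, and a listed gene entered with every array feature (probe set) that the platform annotation assigns to it alone. In this way 25 of the 32 genes were measured, by 39 of the 18769 probe sets, while 11983 genes in all had such a probe set. Syt1 (a synaptotagmin that senses calcium for fast release), Syt4 (another synaptotagmin), Syx1A (the syntaxin of the presynaptic membrane), Nsf2 and comt (ATPases that take SNARE complexes apart) and stnA and stnB (stonins, which act in vesicle recycling) were not analysed here. For stnA and stnB the reason was that 1 probe set carried both names, and for the other 5 genes no probe set carried the name.

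A synaptic vesicle is filled with transmitter by a transporter, docks at the active zone, and is primed there for release. When calcium enters, a calcium sensor triggers fusion through SNARE proteins, of which one sits on the vesicle and others on the terminal membrane. The vesicle membrane is then retrieved by endocytosis, in which dynamin cuts the new vesicle off, and in Drosophila a temperature-sensitive dynamin allele is a common means of blocking transmission during learning experiments.

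The arrays held total RNA of whole Drosophila melanogaster heads in 4 groups of 3 arrays. These were conditioned flies 24 h after conditioning, non-conditioned flies at 24 h, conditioned flies 0 h after conditioning, and non-conditioned flies at 0 h. All 12 carry the label OR, which the labels do not spell out, and the treatment is given as a behavioural stimulus. The kind of conditioning, and the sex, age and number of flies behind an extract, are not stated in the labels. For most arrays nothing says that extracts came from separate groups of flies, and p-values then cover only array-to-array spread, which may be technical. With 3 arrays in a group, their number limits the precision.

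Values are the intensities deposited by the authors, which share a trimmed mean of 150 on every array and have array medians between 19.9 and 21.8. Differences are on the scale of log2(intensity + 16), where 16 is a constant added to steady dim probe sets. They were tested with limma in 1 fit over all 12 arrays and 11261 probe sets, and a probe set was called at a Benjamini-Hochberg adjusted p under 0.05 over all of them. Several features of the heads differed between arrays beside the presynaptic genes. Yolk protein transcripts (Yp1, Yp2 and Yp3) all exceeded 1000 on 3 arrays, namely conditioned 24 h replicates 1 and 2 and conditioned 0 h replicate 3. Accessory gland markers summed to 922 on 1 non-conditioned 0 h array and to at most 76.3 on the arrays of the other 3 groups. All 8 neuronal markers, which include elav and nSyb of the presynaptic list, were tested, and none was called in any comparison. Their summed intensity ran from 7789 to 7968 in conditioned heads at 24 h, against 8066 to 8383 at 0 h. In non-conditioned heads it ran from 7600 to 7900 at 24 h, against 7998 to 8482 at 0 h. The 24 h sums thus lay below the 0 h sums in both arms. By time, 6 of 8 lay below 0 in conditioned heads (median -0.053) and 8 of 8 in non-conditioned heads (median -0.058). Their part in the presynaptic differences was not tested. None of 6 photoreceptor markers was called either, and their sum was at least 25608 on every array, as a head extract would hold. Of these 6, 5 lay below 0 between the times in each arm. Their medians were -0.101 in conditioned and -0.112 in non-conditioned heads, and their part in the presynaptic differences was not tested. Between the times, 5 of 8 glial markers lay below 0 in each arm, with medians of -0.07 in conditioned and -0.043 in non-conditioned heads, and 1 of the 8 was called, higher at 24 h in both arms. The glial sum was 8628 to 9255 in conditioned heads at 24 h, against 9348 to 9681 in conditioned heads at 0 h, and 8617 to 9520 in non-conditioned heads at 24 h, against 9377 to 9828 in non-conditioned heads at 0 h, and its part in the presynaptic differences was not tested. At 24 h, 1 of 2 gut markers was called higher in both arms, and of 6 fat body markers 1 in conditioned and 2 in non-conditioned heads. In whole heads, fewer cells of a type and less RNA per cell cannot be told apart.

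Most presynaptic probe sets were bright enough to be tested. Of the 39 probe sets, 38 (97.4%) were kept by the filter on dim probe sets, which by construction kept 60% of all. The exception was VGlut probe set 1640545_at, whose intensities ran from 0.589 to 13.1. Mean intensity over all arrays exceeded 100 for 31 of the 38 and 500 for 21. Among those 31, the highest array exceeded the lowest by a median ratio of 1.24, with a range of 1.12 to 1.79, and 6 of them stayed under 1.2. For the other 7, which were dimmer, this ratio ran from 1.46 to 4.09, with brp probe set 1632538_at at the top. The median residual SD of these 31 was 0.0825 on the log2 scale, beside 0.0861 for the 6151 tested probe sets over the same intensity. Among all 38, the residual SD was lowest for lap probe set 1636846_at (0.0291) and highest for Cadps probe set 1631142_a_at (0.23).

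Right after conditioning, no presynaptic probe set passed the threshold. Of 38 probe sets, 0 were called in conditioned against non-conditioned heads at 0 h, where 0.577% of all probe sets were called. At an unadjusted p under 0.05 there were 7 (18.4%), 4 higher and 3 lower, beside 12.2% of all. The 3 conditioned and 3 non-conditioned arrays did not overlap for 7 probe sets (18.4%), beside 17.5% of all. The median difference of the 38 was 0.036, beside 0.01 for all probe sets, and the single differences lay between -0.315 and 0.289. The 95% interval stayed within 0.5 on either side of 0 for 36 of the 38.

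A day later the same contrast again called 0 of 38, and 0.0% of all probe sets were called. An unadjusted p under 0.05 was reached by 2 presynaptic probe sets (5.26%), beside 4.33% of all. Groups did not overlap for 5 (13.2%), beside 10.5% of all. The median difference was 0.019, and 37 of the 38 intervals stayed within 0.5 of 0. The conditioning effect at 24 h minus that at 0 h (the interaction) also called 0 presynaptic probe sets and 0.0% of all. There 5 presynaptic probe sets (13.2%) had an unadjusted p under 0.05, beside 7.19% of all, and 30 of 38 intervals stayed within 0.5.

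Between the times, 3 presynaptic probe sets of 2 genes were called, all of them lower at 24 h. In conditioned heads 2 were called (5.26% of the 38), both of shi, and 4.67% of all probe sets were called, 1.97% of all in the lower direction. An unadjusted p under 0.05 was found for 11 (28.9%), 9 lower and 2 higher, beside 18.2% of all. With the 8 arrays that have # in their title alone this count was 6 of 38, beside 1357 of 11261 over all. The count over all probe sets was thus lower as well, against 2055 of 11261 with all arrays. Without the 3 arrays with yolk transcripts, too few conditioned 24 h arrays remained for such a count to be compared with the 11 of the main fit. The part of the yolk arrays in those 11 was therefore not tested. Groups did not overlap for 16 (42.1%), 12 lower and 4 higher, beside 28.1% of all. The median of the 38 was -0.041, against -0.01 over all probe sets, and 25 of them lay below 0.

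In non-conditioned heads the later time called 1 presynaptic probe set (2.63%), a dim one of brp, beside 5.22% of all probe sets and 2.07% called lower. An unadjusted p under 0.05 was found for 4 (10.5%), all lower, beside 17.9% of all. Groups did not overlap for 5 (13.2%), all lower, beside 19.2% of all. The median of the 38 was -0.031, and 25 again lay below 0. Markers of muscle moved with time in both arms. Of 7 muscle probe sets tested, 4 were called lower at 24 h in conditioned heads and 5 in non-conditioned heads. Their summed intensity was 3398 to 3421 in conditioned heads at 24 h, against 4287 to 4536 in conditioned heads at 0 h, and 3545 to 3733 in non-conditioned heads at 24 h, against 4249 to 4881 in non-conditioned heads at 0 h. Each of the 7 exceeded 16 on at least 1 array, and their part in the presynaptic differences was not tested.

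**Figure D1:**
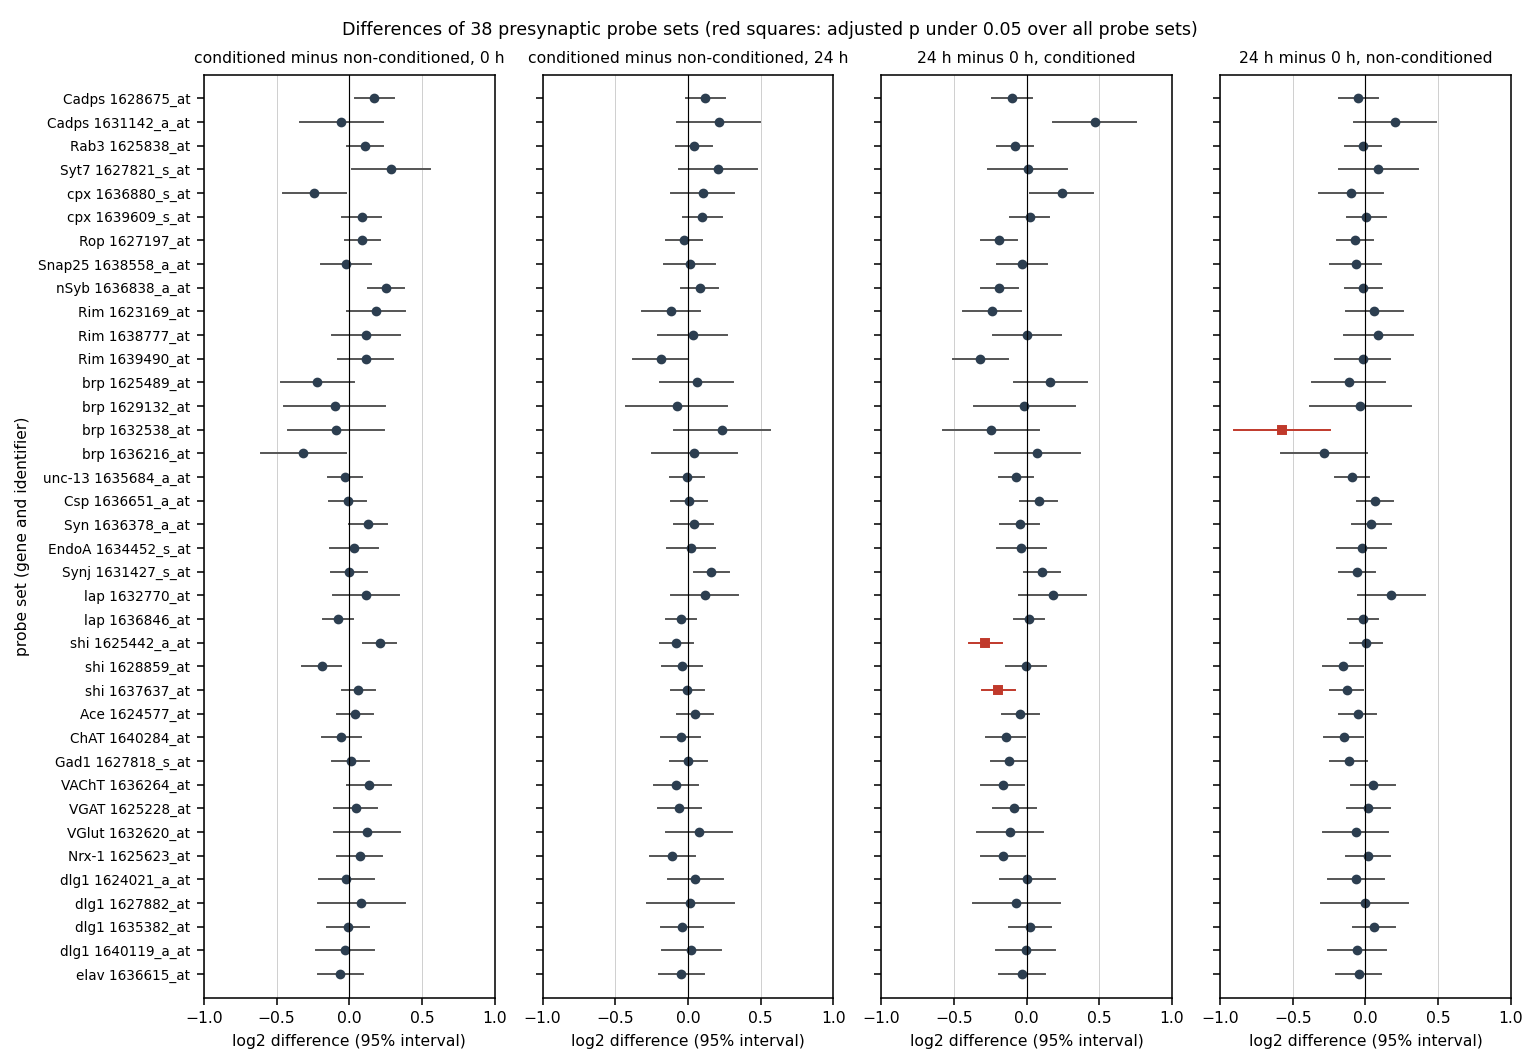
Log2 difference (x axis) of each of the 38 kept presynaptic probe sets (y axis, gene and identifier, grouped by role) in 4 comparisons, with 95% intervals from limma and red squares for adjusted p under 0.05. No probe set is marked in the panels of conditioned minus non-conditioned heads, 2 of shi are marked for 24 h minus 0 h in conditioned heads, and 1 of brp for 24 h minus 0 h in non-conditioned heads.

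**Figure D2:**
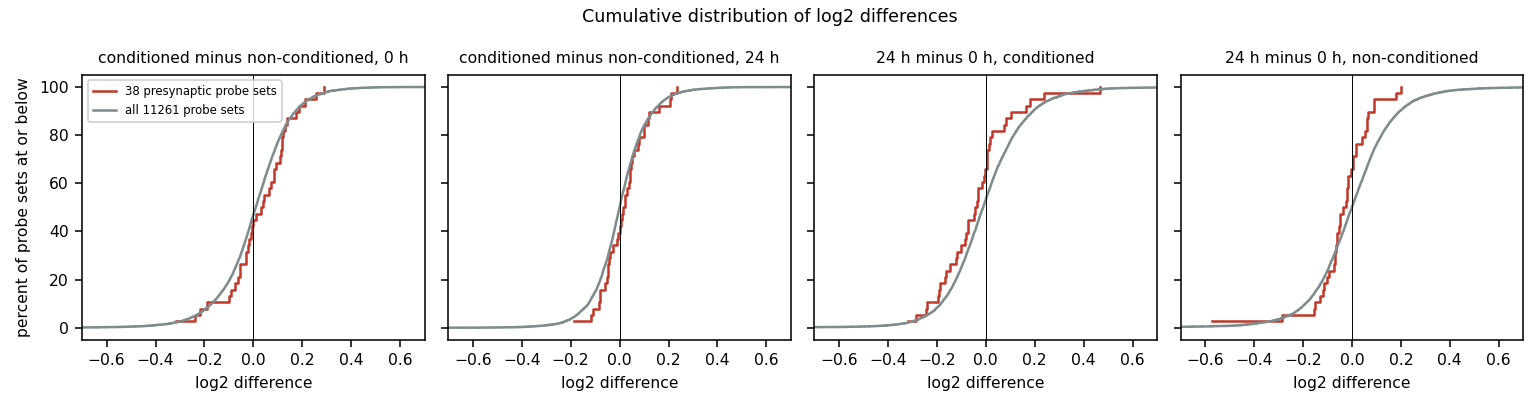
Percent of probe sets (y axis) at or below each log2 difference (x axis), for the 38 presynaptic probe sets in red and all 11261 in grey, in the same 4 comparisons. At a difference of 0 the red curve stands above the grey one in both 24 h minus 0 h panels, where 25 of 38 differences are below 0, and under it in the panels of conditioning, where 17 (0 h) and 15 (24 h) of 38 are.

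The fusion machinery was represented by nSyb, Snap25 and Rop. For nSyb (probe set 1636838_a_at), the SNARE protein on the vesicle, conditioned heads at 0 h gave 904, 832 and 937, against 786, 697 and 751 in non-conditioned heads at 0 h. All 3 conditioned arrays lay above all 3 non-conditioned ones. The log2 difference of 0.25 ± 0.059 (SE) was the one of lowest p among presynaptic probe sets at 0 h, and its limma adjusted p of 0.0691 missed the threshold. At 24 h, nSyb read 774, 781 and 782 in conditioned heads and 689, 747 and 773 in non-conditioned heads. These groups did not overlap either, although they differed by only 0.081 ± 0.059 (adjusted p = 0.999). Within conditioned heads, the 24 h arrays all lay below the 0 h arrays, with a difference of -0.19 ± 0.059 and an adjusted p of 0.0902. In non-conditioned heads the same time difference was -0.015 ± 0.059. Both contrasts of the conditioned 0 h group, with non-conditioned 0 h and with conditioned 24 h heads, share its 3 arrays.

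Rop (1627197_at) encodes a protein of the Sec1/Munc18 family, which binds syntaxin and is needed for fusion. Its intensities were 712, 715 and 717 in conditioned heads at 24 h, against 801, 813 and 839 in conditioned heads at 0 h. The groups were apart and the difference was -0.19 ± 0.058, with an adjusted p of 0.0766. In non-conditioned heads, Rop read 675, 773 and 740 at 24 h and 804, 727 and 770 at 0 h, which overlapped.

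Snap25 (1638558_a_at), the SNARE protein that the terminal membrane contributes beside syntaxin, was among the brightest presynaptic probe sets. It read 3307, 3566 and 3347 in conditioned heads at 24 h, 2970, 3689 and 3514 in non-conditioned heads at 24 h, 3592, 3458 and 3408 in conditioned heads at 0 h, and 3540, 3297 and 3804 in non-conditioned heads at 0 h. All 4 groups overlapped. Its differences lay between -0.068 and 0.035 over the 5 comparisons, and the 95% interval at 0 h ran from -0.197 to 0.151.

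Calcium sensors and release regulators were measured for Syt7, cpx, Cadps and Rab3. Syt7 (1627821_s_at), a synaptotagmin that binds calcium with high affinity in mammals, was a dim probe set. It read 67.8, 52.0 and 79.5 in conditioned heads at 0 h, against 49.0, 53.4 and 50.1 in non-conditioned heads at 0 h, and 55.4, 73.1 and 70.5 in conditioned heads at 24 h, against 57.4, 60.6 and 47.9 in non-conditioned heads at 24 h. At both times the conditioned arrays were on average higher, and at both the groups overlapped. The differences were 0.29 ± 0.13 at 0 h (adjusted p = 0.367) and 0.21 ± 0.13 at 24 h (adjusted p = 0.999). Rab3 (1625838_at), the small GTPase carried by synaptic vesicles, averaged 1573 ± 33.5 in conditioned heads at 24 h, 1526 ± 67.3 in non-conditioned heads at 24 h, 1663 ± 55.6 in conditioned heads at 0 h and 1545 ± 94.7 in non-conditioned heads at 0 h (SD, n = 3 each). Its groups overlapped in every comparison of conditioning at one time or of the times within an arm.

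Complexin, encoded by cpx, binds assembled SNARE complexes and restrains spontaneous fusion. Its 2 probe sets differed in sign at 0 h and between the times in non-conditioned heads, and shared it in the other comparisons. Probe set 1636880_s_at read 3734, 3408 and 3635 in conditioned heads at 0 h, against 3759, 3844 and 5275 in non-conditioned heads at 0 h. The groups were apart by a small margin, and the third non-conditioned array, which was also the array with accessory gland transcripts, stood far above the others. The difference was -0.24 ± 0.10 (adjusted p = 0.357). At 24 h it read 3863, 4662 and 4239 in conditioned heads and 3642, 4186 and 4056 in non-conditioned heads, which overlapped. The interaction was 0.34 ± 0.15 (adjusted p = 0.632). Within conditioned heads its 24 h arrays all lay above its 0 h arrays, by 0.24 ± 0.10 (adjusted p = 0.226). The other probe set, 1639609_s_at, averaged 1895 ± 48.5 in conditioned heads at 24 h, 1769 ± 102 in non-conditioned heads at 24 h, 1872 ± 125 in conditioned heads at 0 h and 1760 ± 50.6 in non-conditioned heads at 0 h (SD, n = 3 each). Its difference at 0 h had the opposite sign, 0.086 ± 0.062, and its interaction was 0.014 ± 0.088.

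Cadps encodes CAPS, which acts in the priming of dense-core vesicles. Probe set 1628675_at read 601, 585 and 615 in conditioned heads at 0 h, against 596, 493 and 509 in non-conditioned heads at 0 h. The groups overlapped through the first non-conditioned array, and the difference was 0.17 ± 0.064 (adjusted p = 0.27). At 24 h it read 566, 552 and 559 in conditioned heads and 496, 523 and 521 in non-conditioned heads, which were apart by 0.12 ± 0.064 (adjusted p = 0.999). Probe set 1631142_a_at had the highest residual SD among the 38 on the log2 scale. It read 1019, 1242 and 1197 in conditioned heads at 24 h, against 1004, 694 and 809 in conditioned heads at 0 h, and these groups were apart. The difference was 0.47 ± 0.13 with an adjusted p of 0.0597, while probe set 1628675_at gave -0.10 ± 0.064 in the same comparison. Probe set 1631142_a_at was called higher at 24 h in conditioned heads with median centring (adjusted p = 0.0436) and without any of 4 single arrays. Without conditioned 0 h replicate 1 its difference was 0.64, with an adjusted p of 0.00946, and when the array left out was the first or the second non-conditioned one at 24 h, or the third at 0 h, it was 0.47, with adjusted p from 0.0305 to 0.0456.

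**Figure D3:**
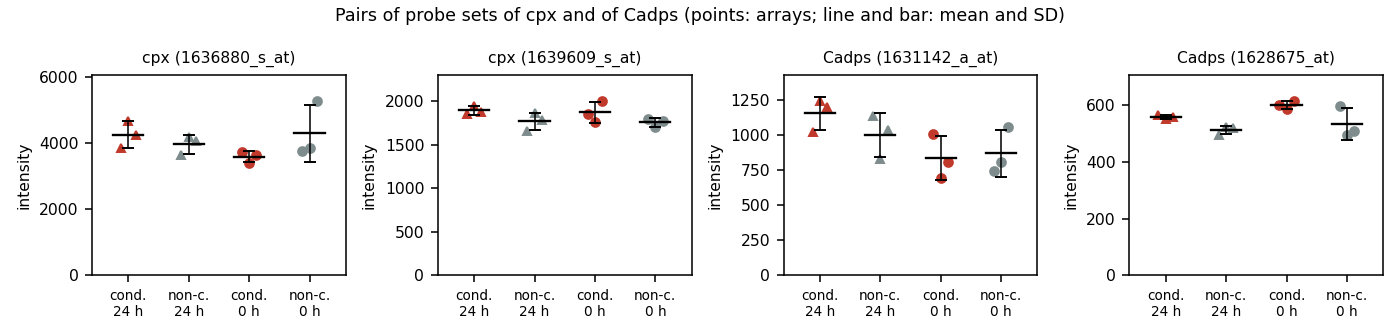
Intensity (y axis, from 0) of the 2 probe sets of cpx and the 2 of Cadps on each array (points) in conditioned and non-conditioned heads at 24 h and at 0 h (x axis), with the group mean and SD as a line and bar (n = 3). The pairs differ in pattern: cpx 1636880_s_at has 1 non-conditioned 0 h array at 5275 that cpx 1639609_s_at does not show, and Cadps 1631142_a_at spreads from 694 to 1242 while Cadps 1628675_at stays between 493 and 615.

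The active zone genes were brp, Rim and unc-13. The protein of brp, Bruchpilot, builds the dense projection of the fly active zone, and all 4 of its probe sets were dim, with mean intensities of 79.2, 15.5, 13 and 40.2. The one called, 1632538_at, read 6.85, 8.48 and 5.24 in non-conditioned heads at 24 h, against 21.4, 16.8 and 15.8 in non-conditioned heads at 0 h. Every 24 h array lay below every 0 h array, with a log2 difference of -0.57 ± 0.16 and an adjusted p of 0.0434. Conditioned heads gave 7.91, 7.66 and 18.3 at 24 h and 13.7, 17.6 and 16.5 at 0 h for the same probe set, which overlapped, with a difference of -0.25 ± 0.16 (adjusted p = 0.459). Its intensities lie near the added constant of 16, so the size of the difference depends on that constant, and it was -1.28 with a constant of 1 and -0.21 with 64. The call was also lost when any of 10 of the 12 arrays was left out, all but non-conditioned 24 h replicate 2 and conditioned 24 h replicate 3, with adjusted p from 0.0505 to 0.223.

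The other brp probe sets gave differences of -0.12, -0.037 and -0.29 between the times in non-conditioned heads, and none was called. Right after conditioning all 4 brp probe sets lay below 0. The brightest, 1625489_at, read 63.9, 65.6 and 85.1 in conditioned heads at 0 h and 86.7, 86.2 and 83.1 in non-conditioned heads at 0 h, which overlapped. Probe set 1636216_at read 37.1, 37.5 and 32.9 in conditioned heads at 0 h, against 44.0, 45.4 and 56.7 in non-conditioned heads at 0 h. These groups were apart, with a difference of -0.32 ± 0.14 and an adjusted p of 0.367.

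Rim encodes a scaffold that links calcium channels and vesicles at the active zone. Its brightest probe set, 1639490_at, read 227, 212 and 236 in conditioned heads at 24 h, against 253, 305 and 298 in conditioned heads at 0 h. The groups were apart, and the difference of -0.32 ± 0.088 had an adjusted p of 0.0503, just outside the threshold. Non-conditioned heads at 24 h read 301, 240 and 238, all above the conditioned 24 h arrays, and the conditioning difference at 24 h was -0.19 ± 0.088 (adjusted p = 0.999). Non-conditioned heads at 0 h read 248, 266 and 272, within the range of the conditioned 0 h arrays or just below it. The interaction was -0.30 ± 0.12, with an adjusted p of 0.615.

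A second Rim probe set, 1623169_at, read 100, 96.2 and 95.1 in conditioned heads at 24 h, 126, 99.3 and 96.8 in non-conditioned heads at 24 h, and 110, 113 and 131 in conditioned heads at 0 h, while non-conditioned heads at 0 h averaged 102 ± 2.18 (SD, n = 3). The conditioned 0 h arrays were above all of those of the conditioned 24 h and the non-conditioned 0 h groups, and the interaction was again -0.30, ± 0.13 (adjusted p = 0.641). The dimmest Rim probe set, 1638777_at, had an interaction of -0.085 ± 0.16, and all of its groups overlapped. The single probe set of unc-13 (1635684_a_at), whose protein primes vesicles for fusion, varied little: it averaged 1792 ± 39.2 in conditioned heads at 24 h, 1803 ± 76.0 in non-conditioned heads at 24 h, 1883 ± 42.4 in conditioned heads at 0 h and 1922 ± 29.3 in non-conditioned heads at 0 h (SD, n = 3 each). In both arms its 24 h arrays lay below its 0 h arrays, by -0.071 ± 0.055 in conditioned and -0.092 ± 0.055 in non-conditioned heads, and neither was called.

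The vesicle-associated proteins synapsin (Syn, 1636378_a_at), which ties vesicles into a reserve pool, and cysteine string protein (Csp, 1636651_a_at), a vesicle chaperone, were measured by 1 probe set each. At 0 h, conditioned heads had a mean Syn intensity of 1479 ± 67.0, against 1354 ± 112 in non-conditioned heads (SD, n = 3 each), a difference of 0.13 ± 0.063 with an adjusted p of 0.428. Csp differed by at most 0.081 in any comparison. Neither gene had groups apart in a comparison of conditioning at one time or of the times within an arm.

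Endocytosis genes held the calls in conditioned heads. The shi gene encodes dynamin, the GTPase that cuts vesicles from the membrane, and it was measured by 3 probe sets. Probe set 1625442_a_at read 555, 552 and 555 in conditioned heads at 24 h, against 700, 651 and 685 in conditioned heads at 0 h. The 24 h arrays all lay below the 0 h arrays and within a few units of each other. The log2 difference was -0.28 ± 0.053, with a limma adjusted p of 0.00516, the lowest of any presynaptic probe set. Non-conditioned heads read 602, 577 and 580 at 24 h and 620, 584 and 552 at 0 h, which overlapped, and differed by 0.0040 ± 0.053 (adjusted p = 0.98).

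Conditioned and non-conditioned heads were apart for this probe set at both times, in opposite directions. At 0 h the conditioned arrays were all higher, by 0.21 ± 0.053 (adjusted p = 0.0975), and at 24 h they were all lower, by -0.080 ± 0.053 (adjusted p = 0.999). The interaction was -0.29 ± 0.075, and its adjusted p of 0.287 did not pass. Since conditioned 24 h replicates 1 and 2 and conditioned 0 h replicate 3 carried yolk transcripts, the values without them bear on the call. On the arrays that remained, conditioned heads read 555 at 24 h, against 700 and 651 at 0 h. The difference was then -0.20, in a fit that had 1 conditioned 24 h array and assumed that it varied like the other groups. That array has no # in its title, while both remaining conditioned 0 h arrays have it. The fit corrected for # in the title from the non-conditioned arrays alone, so -0.20 is not the difference of these readings themselves. The part of the yolk arrays in the call was not tested. The arrays with # in their title alone gave -0.28 with an adjusted p of 0.0884. Leaving out any single array kept the call, with differences from -0.321 to -0.263 and adjusted p from 0.00361 to 0.0439.

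The second called shi probe set, 1637637_at, read 448, 439 and 418 in conditioned heads at 24 h, against 498, 484 and 519 in conditioned heads at 0 h. The groups were apart, with a difference of -0.20 ± 0.053 and an adjusted p of 0.0461. Non-conditioned heads read 450, 433 and 426 at 24 h, against 491, 491 and 454 at 0 h. These groups were apart in the same direction, by -0.13 ± 0.053, with an adjusted p of 0.207. The call in conditioned heads was lost without any of 9 of the 12 arrays, with adjusted p from 0.0501 to 0.268, and held when the array left out was the first non-conditioned one at 0 h, or the first or the second non-conditioned one at 24 h. Without the 3 arrays with yolk transcripts, conditioned heads read 418 on the 1 array left at 24 h, against 498 and 484 at 0 h. The fitted difference was -0.15, again with # in the title corrected for from the non-conditioned arrays alone.

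The brightest shi probe set, 1628859_at, gave another pattern. It read 915, 989 and 924 in conditioned heads at 24 h, 994, 963 and 950 in non-conditioned heads at 24 h, 997, 919 and 921 in conditioned heads at 0 h, and 979, 1149 and 1123 in non-conditioned heads at 0 h. Only 2 of the non-conditioned 0 h arrays stood above the rest. In conditioned heads the time difference was -0.0047 ± 0.064, and right after conditioning the difference was -0.19 ± 0.064 (adjusted p = 0.218), opposite in sign to that of probe set 1625442_a_at. In non-conditioned heads the time difference was -0.16 ± 0.064 (adjusted p = 0.208). Without the first non-conditioned array at 0 h it was -0.23 and was called, with a limma adjusted p of 0.0453.

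**Figure D4:**
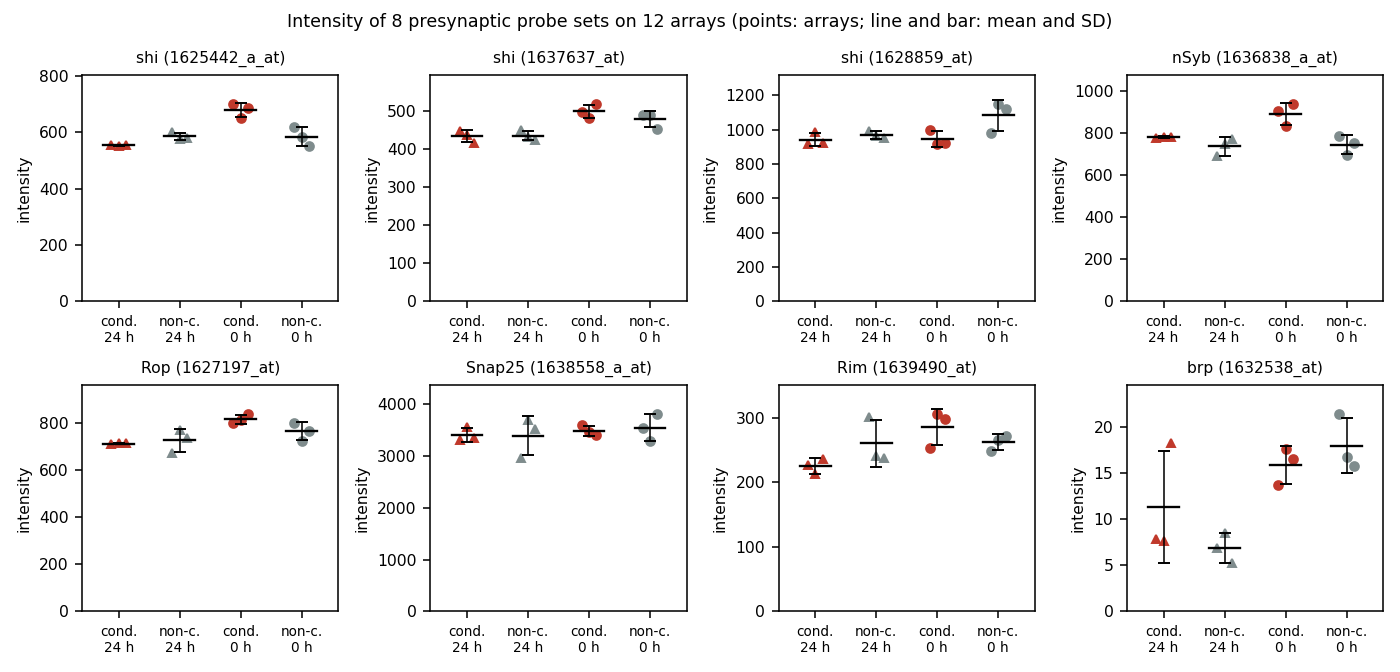
Intensity (y axis, from 0, a scale of its own per panel) of 8 presynaptic probe sets on each array (points) in conditioned and non-conditioned heads at 24 h and at 0 h (x axis), with the group mean and SD as a line and bar (n = 3). In the panels of shi 1625442_a_at, nSyb, Rop and Rim 1639490_at all conditioned 24 h arrays lie below all conditioned 0 h arrays, while shi 1628859_at and Snap25 overlap and brp 1632538_at stays under 22.

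The other endocytosis genes were not called. Synaptojanin (Synj, 1631427_s_at), a phosphoinositide phosphatase that helps strip the coat from new vesicles, had the lowest p in the 24 h contrast of conditioning. It read 771, 828 and 745 in conditioned heads at 24 h, against 668, 737 and 685 in non-conditioned heads at 24 h. The conditioned arrays were all higher, by 0.16 ± 0.058, with an unadjusted p of 0.0133 and an adjusted p of 0.999. At 0 h it read 726, 730 and 719 in conditioned and 743, 687 and 750 in non-conditioned heads, and the conditioned arrays lay within the range of the non-conditioned ones. Endophilin (EndoA, 1634452_s_at), which shapes curved membrane and recruits synaptojanin, averaged between 991 and 1034 in the 4 groups, with all groups overlapping.

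The clathrin adaptor AP180 is encoded by lap. Its brighter probe set, 1636846_at, averaged 920 ± 17.2 in conditioned heads at 24 h, 951 ± 33.2 in non-conditioned heads at 24 h, 913 ± 41.6 in conditioned heads at 0 h and 963 ± 35.6 in non-conditioned heads at 0 h (SD, n = 3 each). Its differences lay between -0.077 and 0.031. Probe set 1632770_at read 210, 222 and 226 in conditioned heads at 24 h, against 188, 193 and 194 in conditioned heads at 0 h, which were apart by 0.18 ± 0.11 (adjusted p = 0.426). In non-conditioned heads it read 247, 154 and 212 at 24 h and 168, 173 and 187 at 0 h, and the second 24 h array fell below all others of this probe set. Without that array it was called higher at 24 h in non-conditioned heads, with an adjusted p of 0.0139.

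Genes of transmitter synthesis, loading and breakdown had 6 probe sets kept, 1 per gene, and all 6 lay below 0 between the times in conditioned heads, with a median of -0.119 and a range of -0.166 to -0.045. In non-conditioned heads 4 of 6 lay below 0, with a median of -0.061, and none of the 6 was called in either arm. Choline acetyltransferase (ChAT, 1640284_at), which makes acetylcholine, read 709, 755 and 772 in conditioned heads at 24 h, 768, 822 and 730 in non-conditioned heads at 24 h, 792, 879 and 809 in conditioned heads at 0 h, and 838, 831 and 908 in non-conditioned heads at 0 h. In each arm the 24 h arrays lay below the 0 h arrays. The differences were -0.15 ± 0.063 in both, with adjusted p of 0.226 in conditioned and 0.214 in non-conditioned heads. Its neighbour VAChT (1636264_at), the vesicular acetylcholine transporter, read 800, 834 and 832 in conditioned heads at 24 h, against 926, 885 and 963 in conditioned heads at 0 h. These were apart by -0.17 ± 0.071 (adjusted p = 0.223), whereas non-conditioned heads differed by 0.054 ± 0.071. Right after conditioning VAChT averaged 924 ± 38.9 in conditioned heads, against 839 ± 24.3 in non-conditioned heads (SD, n = 3 each), and the groups were apart by 0.14 ± 0.071 (adjusted p = 0.459).

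Glutamate decarboxylase (Gad1, 1627818_s_at), which makes GABA, read 2467, 2545 and 2500 in conditioned heads at 24 h, against 2734, 2642 and 2810 in conditioned heads at 0 h, and 2348, 2606 and 2552 in non-conditioned heads at 24 h, against 2683, 2678 and 2773 in non-conditioned heads at 0 h. All 24 h arrays of an arm lay below all its 0 h arrays. The differences were -0.12 ± 0.059 in both arms, with adjusted p of 0.288 in conditioned and 0.329 in non-conditioned heads. VGAT (1625228_at), which loads GABA into vesicles, averaged between 221 and 235 in the 4 groups, and all groups overlapped. VGlut, which loads glutamate, read on probe set 1632620_at 172, 151 and 171 in conditioned heads at 24 h, 188, 134 and 148 in non-conditioned heads at 24 h, 203, 164 and 174 in conditioned heads at 0 h and 153, 181 and 158 in non-conditioned heads at 0 h, with every pair of groups overlapping. Acetylcholinesterase (Ace, 1624577_at), which breaks acetylcholine down, differed by at most 0.054 in size in any comparison.

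No scaffold or adhesion gene was called. The scaffold protein discs large (dlg1) had 4 probe sets, of mean intensity 495, 25.6, 416 and 180, and their differences lay between -0.072 and 0.083 in all 5 comparisons, with every pair of groups overlapping. Neurexin (Nrx-1, 1625623_at), which spans the cleft with its partner neuroligin, read 261, 253 and 267 in conditioned heads at 24 h, against 310, 270 and 301 in conditioned heads at 0 h. The groups were apart by -0.16 ± 0.072 (adjusted p = 0.242). The pan-neuronal RNA-binding protein elav (1636615_at) read 686, 623 and 675 in conditioned heads at 24 h, 748, 639 and 665 in non-conditioned heads at 24 h, 655, 652 and 722 in conditioned heads at 0 h and 710, 766 and 646 in non-conditioned heads at 0 h. All 4 groups overlapped, and no difference exceeded 0.062 in size.

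How far probe sets of 1 gene moved alike could be seen for the 7 genes with more than 1 kept, namely Cadps, Rim, brp, cpx, dlg1, lap and shi. Conditioned against non-conditioned heads, all probe sets of a gene had the same sign for 2 of 7 genes at 0 h (Rim and brp) and for 3 of 7 at 24 h (Cadps, cpx and shi). Between the times the sign was shared for 3 of 7 in conditioned heads (cpx, lap and shi) and 1 of 7 in non-conditioned heads (brp), and for the interaction for 4 of 7. Probe sets can detect different transcripts of a gene, and which ones they detect was not analysed here.

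Over all 38 probe sets, the mean of log2 values centred per probe set ran from -0.041 to 0.013 in conditioned heads at 24 h, -0.049 to -0.003 in non-conditioned heads at 24 h, -0.006 to 0.055 in conditioned heads at 0 h and -0.003 to 0.016 in non-conditioned heads at 0 h. The ranges of the 24 h and 0 h groups met or overlapped in both arms. The ratio of the 3' to the 5' probe set of eIF-4a, a sign of RNA integrity, was 3.26 to 3.61 in conditioned heads at 24 h, 3.42 to 3.65 in non-conditioned heads at 24 h, 3.17 to 3.41 in conditioned heads at 0 h and 3.33 to 3.66 in non-conditioned heads at 0 h. For GAPDH this ratio was 1.76 to 1.8 in conditioned heads at 24 h, 1.7 to 2.15 in non-conditioned heads at 24 h, 1.78 to 2.07 in conditioned heads at 0 h and 2.05 to 2.08 in non-conditioned heads at 0 h. In each of the 4 comparisons of groups these ranges overlapped, and their part in the differences was not tested.

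Other genes of the presynaptic terminal were taken from a list of 69, of which 58 had a probe set of their own and 78 probe sets were tested. Only 1 was called in any of the 5 comparisons, that of cac (1640614_at), the calcium channel subunit that admits calcium at the fly active zone. It averaged 597 ± 10.6 in conditioned heads at 24 h, against 704 ± 45.1 in conditioned heads at 0 h (SD, n = 3 each), with a difference of -0.23 ± 0.059 and an adjusted p of 0.0334. That is 1 of 78 between the times in conditioned heads, beside 4.67% of all probe sets, and in non-conditioned heads it was 0 of 78, beside 5.22% of all. Below 0 lay 46 of the 78 in conditioned heads, beside 53.1% of all probe sets, and 45 of 78 in non-conditioned heads, beside 50.1% of all, with medians of -0.042 and -0.02. In conditioned against non-conditioned heads, 41 of 78 lay below 0 at 0 h and 37 of 78 at 24 h, with medians of -0.014 and 0.003, and for the interaction it was 36 of 78, with a median of 0.016. The lowest p among these genes at 0 h was that of hiw (1632637_at), a ubiquitin ligase that restrains synaptic growth, at 211 ± 5.24 in conditioned and 175 ± 9.77 in non-conditioned heads (SD, n = 3 each), and its adjusted p of 0.108 did not pass. At 24 h it was that of Syb (1626835_at), the more widely expressed synaptobrevin, at 199 ± 2.77 in conditioned and 160 ± 7.17 in non-conditioned heads, with an adjusted p of 0.999. Between the times in non-conditioned heads it was that of ChT (1624129_s_at), a choline transporter, at 459 ± 20.4 at 24 h and 530 ± 21.6 at 0 h (SD, n = 3 each), with an adjusted p of 0.072.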

How the data were processed

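Whole-head RNA of 12 Drosophila samples was hybridised to 1 array each. The authors deposited linear intensity values for 18952 probe sets, already scaled to a common trimmed mean of 150 (with 2% trimmed, as tested on the values). The scanner software is not given here, nor is the summarisation. Control probe sets (183) were removed, log2(intensity + 16) was taken, and the upper 60% by mean log2 value were kept (11261, from a mean equivalent to an intensity of 8.05). Genes were named from the platform annotation, for 13647 probe sets with 1 symbol, and 13544 of these had their gene in the RefSeq gene table. Probe sets with several symbols (402) or none (4720) were not named.

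Fits used limma 3.58.1 (R 4.3.3). The model held a mean for each of the 4 groups plus 1 term separating titles with # (8 arrays) from titles without it (4 arrays), and eBayes was run with a mean-variance trend (7 residual degrees of freedom, median total 15.7). The 5 comparisons used two-sided p-values adjusted over all 11261 probe sets. The fit was tested on simulated data. The members, the wider and marker lists and the rule for genes given array by array (those called, and the 4 of lowest p per comparison, besides a fixed few) were chosen with earlier results of these data known. Comparisons that share a group share its arrays. Alternatives were other normalizations, constants, filters, title handling and variance models, and leaving out arrays.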

Additional observations from a re-analysis of the deposited data

Results flagged for a closer look

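For shi probe set 1625442_a_at, conditioned heads lay entirely below non-conditioned heads at 24 h and entirely above them at 0 h. The conditioning difference at 24 h minus that at 0 h was -0.29 ± 0.075 on the log2 scale (SE), and its limma adjusted p of 0.287 did not pass the threshold. The other shi probe sets gave interactions of -0.067 (1637637_at) and 0.15 (1628859_at).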

How the results depend on the processing

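The number of presynaptic probe sets called was 0 for conditioning at 24 h and for the interaction under each of the 22 alternatives run, at an adjusted p under 0.05. For conditioning at 0 h it was 0, but 1 (nSyb) with median centring, and 0 to 2 when 1 array was left out. Those were nSyb, at an adjusted p of 0.0361 without non-conditioned 0 h replicate 1 and 0.0356 without non-conditioned 24 h replicate 1, and Cadps probe set 1628675_at, at 0.0454 without non-conditioned 0 h replicate 1. Between the times in non-conditioned heads 1 was called, but 0 with the # arrays alone, with quantile normalization, with median centring or with no filter. The number was also 0 with the upper 40%, where the dim brp probe set 1632538_at was filtered out and not tested. It was 0 to 2 when 1 array was left out. In conditioned heads 2 were called, but 0 without the 3 yolk arrays and 0 with the # arrays alone, 1 with no filter and without the variance trend, 3 without the title term and with the upper 40% (both adding Rim probe set 1639490_at), and 5 with quantile normalization, which added that Rim probe set, Rop and cpx probe set 1636880_s_at, the last higher. Median centring gave 2 by calling Cadps probe set 1631142_a_at, higher, in place of shi probe set 1637637_at. Leaving out 1 array gave 1 to 6 there, with 6 without non-conditioned 24 h replicate 1 and 5 without non-conditioned 24 h replicate 2. Both of these fits added Cadps probe set 1631142_a_at, higher, besides Rim probe set 1639490_at and Rop. The fit without non-conditioned 24 h replicate 1 also added VAChT, lower, by -0.17 with a limma adjusted p of 0.0418. The causes were not tested. In the fit without the 3 yolk arrays, 1 conditioned 24 h array was left and the title term came from the non-conditioned arrays alone. No difference of a called probe set turned its sign. Over all probe sets, the calls ran from 8 to 150 for conditioning at 0 h, 0 to 8 at 24 h, 246 to 755 between the times in non-conditioned heads and 18 to 729 in conditioned heads. Median centring made 516 of 678 calls in non-conditioned heads higher at 24 h, against 355 of 588 otherwise. No paired analysis was possible because replicate numbers follow the order of the samples and pair no arrays. Dim probe sets, above all those of brp, are limited by their signal.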
